A study of Coilia nasus with 12 samples.

Results

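The enzymes that write and erase chemical marks on histones and DNA were followed in the stomach of Coilia nasus, an anchovy that migrates between the sea and rivers. Members were all transcripts in the deposited expression table whose gene name begins with one of the standard symbols of these families. The families are the EZH, EED and SUZ12 subunits of Polycomb repressive complex 2 (PRC2), the lysine methyltransferases KMT, SETD, EHMT and NSD, the arginine methyltransferases (PRMT) and the lysine acetyltransferases (KAT, EP300, CREBBP). The DNA methyltransferases (DNMT), the lysine demethylases (KDM), the histone deacetylases (HDAC), the sirtuins (SIRT) and the TET dioxygenases completed the rule. It found 151 unigenes under 76 gene names, out of 63567 unigenes in the table, of which 18158 carried a name. A unigene is a transcript group assembled from the reads without a genome, so several unigenes can be fragments or copies of the same gene, and 36 of the 76 names had several. No unigene was named DOT1L, SIRT1, TET2, KDM7A, NSD2, NSD3, HDAC1, HDAC10, PRMT6, PRMT8 or SETD4. This says only that the deposited names lack these symbols, since the best matches were not searched for them.

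The stomachs of 12 individual fish were sequenced, 6 under the label food intake and 6 under no food intake. The tissue label is stomach and the source label gastric mucosa. The labels give no age, sex, site, sampling time or length of fasting for either group, and the extraction protocol calls the groups feeding and control fish. The question of the comparison is which stomach transcripts differ with feeding. Values are in TPM, the share of a library's transcripts scaled for their length, which carries no record of read depth, so the counting error of a low value is unknown.

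A histone mark is set by one enzyme and removed by another. Methyl groups on lysine 4 of histone H3 (H3K4) go with active promoters and enhancers, methyl groups on lysine 27 (H3K27) with Polycomb silencing, and lysine acetylation with open chromatin. Methyltransferases draw on S-adenosylmethionine, acetyltransferases on acetyl-CoA and sirtuins on NAD, so each class is tied to the nutrient state of the cell, and in the mouse intestine PRC2 is known for holding back differentiation genes in dividing cells. The roles given below were worked out mainly in mammals and yeast.

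These enzymes were low to moderate transcripts. A unigene was tested where it reached 1 TPM or more in at least 6 of the 12 libraries, which 119 of the 151 members did. For each of the 119, both groups held at least 1 library at 1 TPM or more, though a member could still pass mainly through a single group. The other 32 averaged 0.661 to 1.37 TPM and were short, with a median length of 293.5 bases against 1600 bases for the tested members. The tested members averaged 1.05 to 49.6 TPM over the 12 libraries with a median of 2.37 TPM, close to the median of 2.41 TPM over all 40142 tested unigenes. Only 7 members reached a mean of 10 TPM and 18 reached 5 TPM, while 45 stayed under 2 TPM. The best protein match was from Atlantic herring (Clupea harengus) for 120 of the 151.

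**Figure D1:**
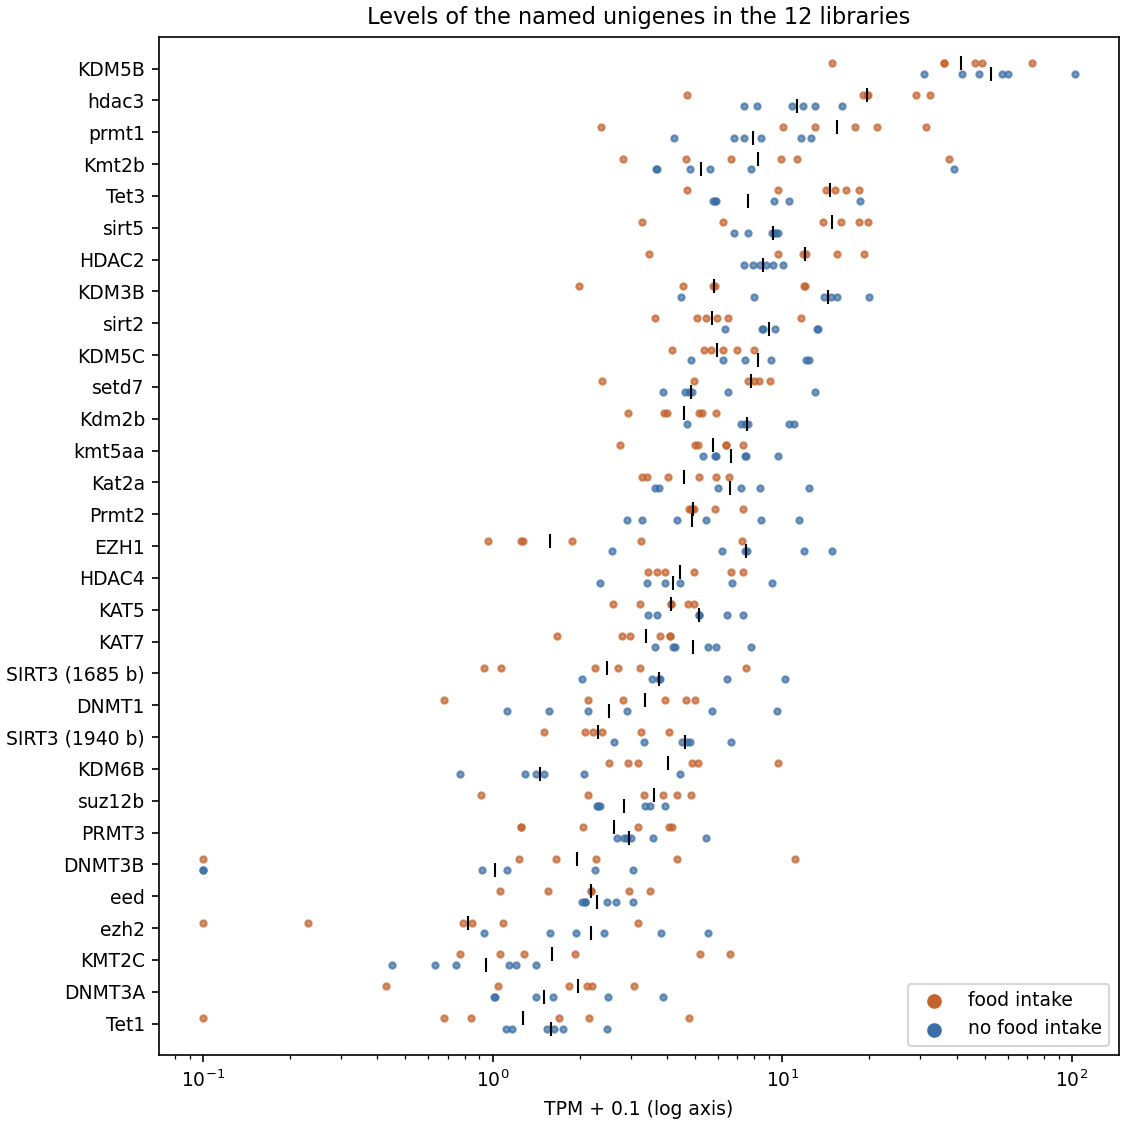
TPM plus 0.1, on a log axis, of the 31 unigenes named by the rule for named genes, with the 6 food intake libraries (orange) drawn above the 6 no food intake libraries (blue) and a black bar at each group's median. Levels run from a KDM5B unigene with a mean of 49.6 TPM to a Tet1 unigene with a mean of 1.56 TPM, and in every line the points of the groups overlap.

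No enzyme differed between the groups at an adjusted p under 0.05 (limma on log2(TPM + 1) with Benjamini-Hochberg adjustment over the 40142 unigenes). The same held for all unigenes, with 0 called (0.0%). The smallest adjusted p of a member was 0.768. At an unadjusted p under 0.05, 2 of the 119 members were higher with food intake (1.68%) and 4 were lower (3.36%), against 2.48% and 3.79% of all tested unigenes. Groups did not overlap for 0 of the 119 members, against 0.167% of all tested unigenes. The shares among the members were thus no larger than those in the whole table, and the values that follow describe these 12 libraries rather than called differences. In a bulk sample of stomach, fewer cells of a type and less RNA per cell cannot be told apart.

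By sign alone, 41 members were higher and 78 lower with food intake, so 65.5% were lower, against 54.0% of all tested unigenes. The median log2 difference was -0.12 for the members and -0.04 for all tested unigenes. Among enzymes that deposit marks, 30 of 70 were higher and 40 lower, with a median of -0.06. Among enzymes that remove marks, 11 of 49 were higher and 38 lower, with a median of -0.15. The lean of the removing enzymes came mostly from the KDM demethylases, of which 2 were higher and 30 lower.

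**Figure D2:**
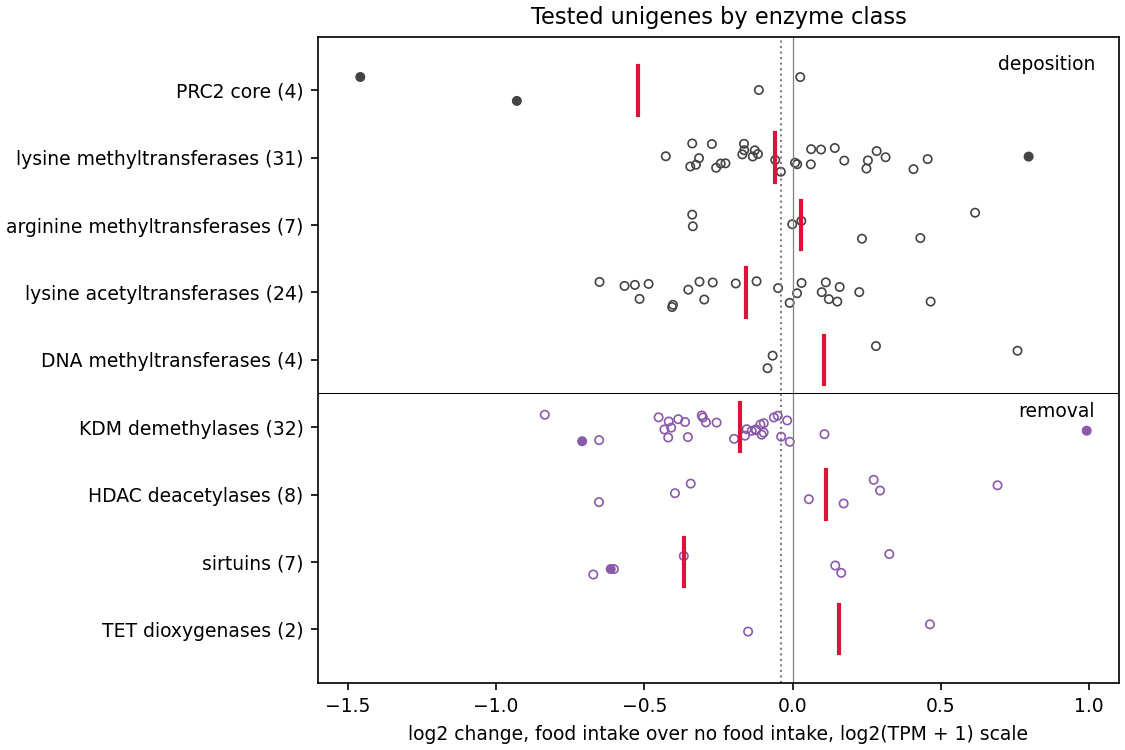
Log2 difference, food intake over no food intake, of each of the 119 tested members by enzyme class, with the number tested in brackets. Filled points had an unadjusted p under 0.05, red bars are class medians and the dotted line is the median of all tested unigenes (-0.04). The widest spread to the left is in the PRC2 core, and 30 of 32 KDM demethylases lie left of 0.

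The counts of signs depended on a few libraries, for the members as for the whole table. Ribosomal RNA-like unigenes took 64.2% of all TPM in food intake 6, against 4.34% to 16.4% in food intake 1 to 5 and 6.12% to 26.9% in no food intake 1 to 6. Food intake 6 held the lowest value of the 12 for 69 of the 119 members (58.0%) and for 35.6% of all tested unigenes. At the other end, no food intake 4 held the highest value for 49 members (41.2%) and for 22.8% of all tested unigenes. Without food intake 6, 59 members were higher and 60 lower, so 50.4% were lower, against 44.5% of all tested unigenes, and the medians were -0.01 and 0.06. Depositing enzymes were then 37 higher and 33 lower (median 0.04), and removing enzymes 22 higher and 27 lower (median -0.06). Without no food intake 4, 52.9% of members were lower, against 46.6% of all tested unigenes. With the ribosomal RNA-like unigenes removed and TPM rescaled, 50 members were higher and 69 lower, so 58.0% were lower, against 44.2% of all tested unigenes, and the medians were -0.03 and 0.06. Leaving out food intake 6 gave 9 members higher (7.56%) and 4 lower (3.36%) at an unadjusted p under 0.05, against 8.36% and 2.88% of all tested unigenes. The rescaling gave 4 members higher (3.36%) and 4 lower (3.36%) at an unadjusted p under 0.05, against 5.69% and 2.52% of all tested unigenes.

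**Figure D3:**
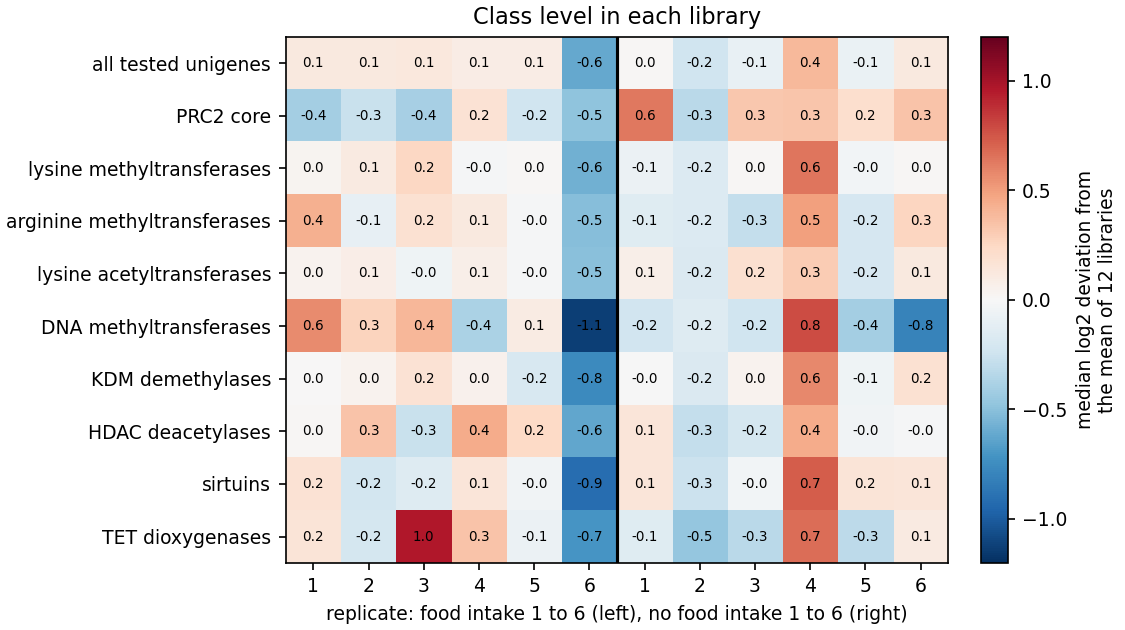
Median deviation, on the log2(TPM + 1) scale, of the tested members of each class from their mean over the 12 libraries, for food intake 1 to 6 on the left of the line and no food intake 1 to 6 on the right. The food intake 6 column is low and the no food intake 4 column high in every class, as in the row of all tested unigenes (-0.62 and 0.39), while the PRC2 row is below 0 in 5 of the 6 food intake libraries and in no food intake 2 (-0.32).

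The libraries also formed 2 sets by unigenes whose best match was a chicken mitochondrial protein. Such unigenes were present in 3 food intake and 4 no food intake libraries, and at 0 in 3 food intake and 2 no food intake libraries. The labels do not say what sets them apart. Food intake 6 and no food intake 4 were both among the libraries with these unigenes, called the first set here. Differences between the sets, here and below, therefore cannot be told apart from the values of those libraries. In the first set 25 members were higher and 94 lower with food intake, with a median of -0.32 against -0.19 for all tested unigenes. In the second set 73 members were higher and 46 lower, with a median of 0.10 against 0.18. The share of lower members was 79.0% in the first set, against 63.3% of all tested unigenes, and 38.7% in the second, against 36.2%. Depositing enzymes were 19 higher and 51 lower in the first set (median -0.26), and 42 higher and 28 lower in the second (median 0.12). Removing enzymes were 6 higher and 43 lower in the first set (median -0.40), and 31 higher and 18 lower in the second (median 0.09).

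PRC2 writes the repressive H3K27 methyl mark. EZH1 and EZH2 are its alternative catalytic subunits, EED reads the mark and stimulates the enzyme, and SUZ12 holds the complex together. The EZH1 unigene, 4187 bases long, had the smallest p of all members. It stood at 0.860, 1.15, 1.17, 7.17, 1.78 and 3.16 TPM in food intake 1 to 6, against 11.8, 2.48, 14.8, 7.48, 7.35 and 6.08 TPM in no food intake 1 to 6. The food intake libraries were all below the no food intake median of 7.42 TPM, and 4 of them were below the lowest no food intake library. Food intake 4 and 6 lay within the range of the no food intake libraries. Means were 2.55 ± 2.41 TPM with food intake and 8.33 ± 4.35 TPM without (SD, n = 6 each). The log2 difference was -1.46 (SE 0.41), with an unadjusted p of 0.0024 and an adjusted p of 0.768 by limma. The difference was -1.37 in the libraries with the chicken-matched unigenes and -1.77 in those without. It was -1.55 without food intake 6 and -1.38 after rescaling.

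Another PRC2 unigene, named ezh2 in the deposited annotation but best matched to EZH1 of Atlantic herring, is 819 bases long. Its food intake values were 0, 0.690, 0.130, 3.08, 0.750 and 0.990 TPM, against 5.44, 0.830, 2.32, 1.48, 1.84 and 3.71 TPM without food intake. Again food intake 4 was the highest of its group and 4 food intake libraries were below the lowest no food intake library. Just 6 libraries reached 1 TPM, and food intake 4 was the only food intake library among them. This unigene thus passed the filter mainly through the group where it was higher. The log2 difference was -0.93 (SE 0.38, unadjusted p 0.025, adjusted p 0.774 by limma), on a scale that compresses differences at these low levels. It was -1.18 in the libraries with the chicken-matched unigenes and -0.63 in those without. Both unigenes with EZH1 as best match thus had lower means with food intake. Since 1 has the name of the paralog, reads of EZH1 and EZH2 may be split between them.

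The only unigene matched to EZH2 itself, 3110 bases long, lay in the same assembly component as the EZH1 unigene and was too low to be tested. It read 2.16, 0.800, 1.70, 0.810, 0.790 and 0.500 TPM in food intake 1 to 6, against 0.990, 0.750, 0.310, 1.08, 0.730 and 1.12 TPM in no food intake 1 to 6. The groups overlapped over most of their range, with the highest values in food intake 1 and 3. With both ezh2 unigenes summed, the log2 difference was -0.48 (unadjusted p 0.134 by limma).

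The partners of the catalytic subunits lay close together in the groups. The suz12b unigene had 0.810, 3.52 and 4.74 TPM (lowest, median and highest) with food intake, against 2.19, 2.75 and 3.84 TPM without, a log2 difference of 0.03 (SE 0.31). The eed unigene had 0.960, 2.09 and 3.39 TPM with food intake, against 1.93, 2.19 and 2.95 TPM without, a log2 difference of -0.11 (SE 0.26). In both, the food intake range enclosed the no food intake range. The class median of -0.52 over 4 tested unigenes therefore rests on the EZH1-matched pair.

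The enzymes that remove H3K27 methyl groups are KDM6A (UTX) and KDM6B (JMJD3). A KDM6B unigene of 984 bases was the higher member with the smallest p. It ranged from 2.43 to 9.58 TPM with a median of 3.94 TPM with food intake, and from 0.670 to 4.32 TPM with a median of 1.36 TPM without. All 6 food intake libraries were above the no food intake median, 3 were above the highest no food intake library, and the overlap came from no food intake 6. Means were 4.63 ± 2.65 TPM with food intake and 1.81 ± 1.30 TPM without (SD, n = 6 each), and the log2 difference was 0.99 (SE 0.34, unadjusted p 0.0090, adjusted p 0.768 by limma). The difference was 0.81 in the libraries with the chicken-matched unigenes and 1.29 in those without.

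That unigene did not stand for the whole gene. The 2604-base KDM6B unigene of the same assembly component averaged 1.09 ± 0.361 TPM with food intake and 1.54 ± 0.687 TPM without, a log2 difference of -0.26. The 1410-base KDM6B unigene averaged 2.42 ± 1.05 TPM with food intake and 2.59 ± 1.84 TPM without, a difference of -0.02. Summed by gene name, KDM6B differed by 0.43 on the log2 scale (unadjusted p 0.224 by limma). The 3 KDM6A unigenes differed by -0.43, -0.20 and -0.10, with unadjusted p-values of 0.173, 0.657 and 0.738 by limma. Of the 6 tested KDM6 unigenes, 1 was higher and 5 lower, with a median of -0.15.

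**Figure D4:**
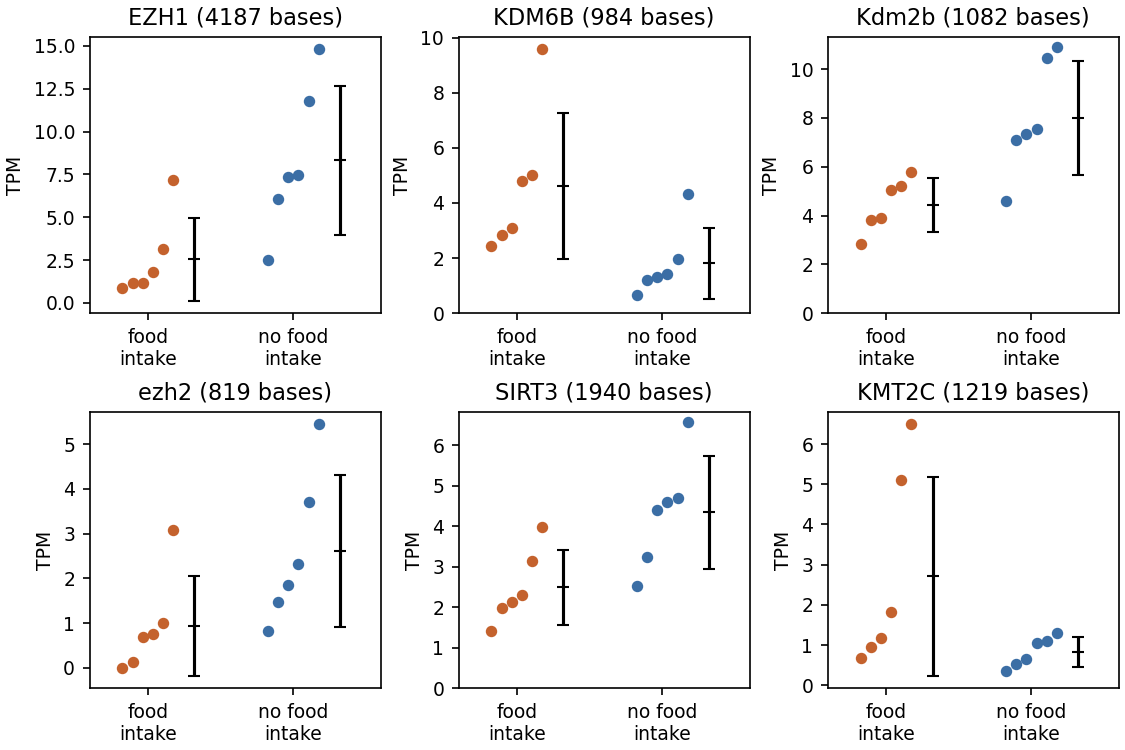
TPM in the food intake (left) and no food intake (right) libraries of the 6 members with an unadjusted p under 0.05, each point 1 library, with bars for the mean ± SD (n = 6 each). EZH1, Kdm2b, ezh2 and SIRT3 lie lower with food intake, KDM6B and KMT2C higher, and the groups overlap in every panel.

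The other lysine methyltransferases were evenly split, with 14 of 31 higher, 17 lower and a median of -0.06. The most abundant was Kmt2b, a catalytic subunit of the COMPASS-like complexes that methylate H3K4. It ranged from 2.71 to 37.6 TPM with a median of 8.17 TPM with food intake, and from 3.56 to 39.1 TPM with a median of 5.13 TPM without. In each group replicate 4 stood far above the other libraries, so the means of 12.1 ± 12.9 TPM with food intake and 10.7 ± 14.0 TPM without carried an SD as large as themselves. The log2 difference was 0.25 (SE 0.57).

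KMT2C, another catalytic subunit of those complexes, gave the only unigene of this class with an unadjusted p under 0.05. This 1219-base unigene stood at 1.83, 0.670, 6.49, 1.18, 5.11 and 0.960 TPM in food intake 1 to 6, against 1.04, 0.650, 1.1, 0.530, 1.31 and 0.350 TPM in no food intake 1 to 6. The high values were those of food intake 3 and 5, and the other 4 food intake libraries were near the no food intake range. The log2 difference of 0.80 (SE 0.38, unadjusted p 0.049, adjusted p 0.795 by limma) became 0.54 without food intake 3 and 0.60 without food intake 5. All KMT2C unigenes summed differed by 0.16 (unadjusted p 0.658 by limma).

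Setd7, which adds 1 methyl group to H3K4 and also methylates non-histone proteins, averaged 6.61 ± 2.54 TPM with food intake and 6.17 ± 3.38 TPM without, a log2 difference of 0.10 (SE 0.34). The kmt5aa unigene, whose product SETD8 sets the first methyl group on H4K20, averaged 5.40 ± 1.604 TPM with food intake and 6.85 ± 1.599 TPM without, a difference of -0.32 (SE 0.28). Neither difference exceeded the spread between fish. The 3 tested unigenes of EHMT1 and EHMT2, the enzymes of H3K9 mono- and dimethylation, differed by -0.23, -0.06 and 0.14.

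Arginine methyltransferases had 4 of 7 unigenes higher and 3 lower. The most abundant, prmt1, encodes the main source of asymmetric dimethylarginine. It had 2.27, 15.3 and 31.3 TPM (lowest, median and highest) with food intake, against 4.14, 7.83 and 12.5 TPM without. Here 4 food intake libraries were above the highest no food intake library and food intake 6 was below the lowest. On the log2 scale prmt1 differed by 0.62 (SE 0.46, unadjusted p 0.194 by limma), and by 1.03 (unadjusted p 0.00688 by limma) without food intake 6. Leaving out any single library gave 0.37 to 1.03. Without food intake 6, 8.36% of all tested unigenes were higher at an unadjusted p under 0.05 by limma. Prmt2 stood at 5.33 ± 1.01 TPM with food intake and 5.88 ± 3.33 TPM without, and PRMT3, which methylates a ribosomal protein, at 2.56 ± 1.33 TPM with food intake and 3.31 ± 1.05 TPM without.

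Lysine acetyltransferases had 9 of 24 unigenes higher and 15 lower with food intake, with a median of -0.16, and 0 at an unadjusted p under 0.05. The smallest p was that of KAT7 (HBO1), the MYST-family enzyme that acetylates H3K14 and works at replication origins. Its 1528-base unigene ranged from 1.57 to 4.0 TPM with food intake, against 3.55 to 7.68 TPM without. All 6 food intake libraries were below the no food intake median of 4.81 TPM, with a log2 difference of -0.57 (SE 0.27, unadjusted p 0.054, adjusted p 0.800 by limma). Kat2a (GCN5), which acetylates H3K9 in the SAGA complex, averaged 4.63 ± 1.35 TPM with food intake and 6.81 ± 3.29 TPM without, a difference of -0.40. KAT5 (TIP60), which acetylates H4 and H2A, averaged 3.86 ± 0.893 TPM with food intake and 5.11 ± 1.52 TPM without, a difference of -0.31. Summed by gene name, 1 of 10 acetyltransferases was higher and 9 lower, where 54.6% of all names and unnamed unigenes tested were lower. Without food intake 6, 11 of the 24 unigenes were higher and 13 lower, with a median of -0.04. In the libraries without the chicken-matched unigenes 13 were higher and 11 lower. Of all tested unigenes, 44.5% and 36.2% were lower in these settings.

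The classical deacetylases, which undo that acetylation, had 5 of 8 unigenes higher and 3 lower, with a median of 0.11. The catalytic subunit of the NCoR and SMRT corepressors, hdac3, was their most abundant member. It stood at 28.8, 19.6, 32.3, 19.6, 18.9 and 4.58 TPM in food intake 1 to 6, against 8.11, 11.7, 7.28, 15.97, 10.7 and 12.9 TPM in no food intake 1 to 6. The first 5 food intake libraries were all above the highest no food intake library, while food intake 6, the library dominated by ribosomal RNA-like unigenes, was below the lowest. Over all 12 libraries hdac3 differed by 0.69 on the log2 scale (SE 0.39, unadjusted p 0.096, adjusted p 0.806 by limma). It was 1.04 (unadjusted p 0.00126) without food intake 6 and 0.83 (unadjusted p 0.00984) after rescaling. It was 0.21 in the libraries with the chicken-matched unigenes and 1.30 in those without. Leaving out any single library gave 0.53 to 1.04.

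HDAC2, of the Sin3, NuRD and CoREST complexes, had a similar arrangement of libraries. Its lowest, median and highest values were 3.37, 11.9 and 19.0 TPM with food intake, against 7.27, 8.49 and 9.95 TPM without. Here too 4 food intake libraries were above the highest no food intake library and food intake 6 was the lowest of the 12, and the log2 difference was 0.29 (SE 0.34, unadjusted p 0.395 by limma). It was 0.58 (unadjusted p 0.0234 by limma) without food intake 6, and leaving out any single library gave 0.14 to 0.58. The unigene named HDAC4, best matched to HDAC7, averaged 4.90 ± 1.63 TPM with food intake and 4.91 ± 2.51 TPM without, a log2 difference of 0.05 (SE 0.31). The hdac9b unigene, of the same class IIa, averaged 1.37 ± 1.24 TPM with food intake and 2.54 ± 1.03 TPM without (log2 difference -0.65, unadjusted p 0.062 by limma).

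Sirtuins, the NAD-dependent deacylases, gave no common direction, with 3 of 7 unigenes higher and 4 lower. SIRT3, the main deacetylase of mitochondria, was represented by a pair of unigenes. The 1940-base unigene ranged from 1.40 to 3.97 TPM with a median of 2.21 TPM with food intake, and from 2.52 to 6.57 TPM with a median of 4.51 TPM without. All 6 food intake libraries were below the no food intake median and 4 were below the lowest no food intake library. The log2 difference was -0.61 (SE 0.28, unadjusted p 0.040, adjusted p 0.784 by limma), and -0.52 (unadjusted p 0.0891) after rescaling. The 1685-base unigene differed by -0.67 (SE 0.39, unadjusted p 0.104), and both summed by -0.70 (unadjusted p 0.041).

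The cytoplasmic deacetylase sirt2 averaged 6.27 ± 2.75 TPM with food intake and 9.80 ± 2.80 TPM without, a log2 difference of -0.60 (SE 0.30, unadjusted p 0.061 by limma). Food intake 4, at 11.5 TPM, was apart from the other food intake libraries. The more abundant unigene of the mitochondrial desuccinylase sirt5 lay the other way, with 3.19, 14.8 and 19.7 TPM (lowest, median and highest) with food intake, against 6.74, 9.22 and 9.57 TPM without. Of the food intake libraries 4 were above the highest no food intake library and 2 below the lowest. The log2 difference was 0.33 (SE 0.38), or 0.63 (unadjusted p 0.042 by limma) without food intake 6. Leaving out any single library gave 0.17 to 0.63. The other tested SIRT5 unigene averaged 1.43 ± 0.511 TPM with food intake and 2.21 ± 1.019 TPM without, a difference of -0.37 (SE 0.27, unadjusted p 0.199 by limma). Summed by gene name, SIRT5 differed by 0.22 (unadjusted p 0.527).

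The KDM demethylases had the most uneven signs of any class with more than 10 tested unigenes, with 2 higher and 30 lower and a median of -0.18. At an unadjusted p under 0.05 by limma, 1 of the 32 was lower (3.12%), Kdm2b, and 1 higher (3.12%), KDM6B. The shares of all tested unigenes were 3.79% lower and 2.48% higher. Kdm2b recruits a variant Polycomb complex to unmethylated CpG islands and removes methyl groups from H3K36. Its 1082-base unigene stood at 3.82, 5.05, 5.19, 3.90, 5.79 and 2.83 TPM in food intake 1 to 6, against 7.54, 7.10, 7.35, 10.4, 4.59 and 10.9 TPM in no food intake 1 to 6. Only no food intake 5 reached down into the food intake range. Means were 4.43 ± 1.098 TPM with food intake and 7.99 ± 2.35 TPM without, and the log2 difference was -0.71 (SE 0.28, unadjusted p 0.020, adjusted p 0.774 by limma). The summed unigenes of the gene differed by -0.73 (unadjusted p 0.023), and the difference was -0.98 in the libraries with the chicken-matched unigenes and -0.27 in those without.

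KDM3B, a demethylase of H3K9, averaged 6.91 ± 4.07 TPM with food intake and 12.7 ± 5.58 TPM without in its 1842-base unigene. All 6 food intake libraries were below the no food intake median of 14.3 TPM, with a log2 difference of -0.84 (SE 0.41, unadjusted p 0.057, adjusted p 0.803 by limma). That difference was -1.33 in the libraries with the chicken-matched unigenes and -0.10 in those without.

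KDM5 enzymes remove methyl groups from H3K4 and made up 12 of the 32 tested demethylase unigenes. The most abundant member of all, a 527-base KDM5B unigene, had 14.8, 41.3 and 72.6 TPM (lowest, median and highest) with food intake, against 30.9, 52.7 and 103 TPM without. The lowest value was that of food intake 6 and the highest that of no food intake 4, and the log2 difference was -0.45 (SE 0.39, unadjusted p 0.265 by limma). It was -0.19 without food intake 6, -1.095 in the libraries with the chicken-matched unigenes and 0.33 in those without. A second KDM5B unigene, of 1190 bases, averaged 5.62 ± 2.29 TPM with food intake and 9.65 ± 4.89 TPM without, a difference of -0.65 (unadjusted p 0.062). The most abundant KDM5C unigene averaged 5.97 ± 1.33 TPM with food intake and 8.59 ± 3.09 TPM without, a difference of -0.42 (SE 0.29). All 5 KDM5C unigenes summed differed by -0.19 (unadjusted p 0.530 by limma). KDM1A (LSD1), the flavin-dependent H3K4 demethylase, averaged 3.77 ± 1.27 TPM with food intake and 5.38 ± 1.88 TPM without, a difference of -0.42.

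The counts of signs in the KDM class also varied with the libraries named above. Food intake 6 held the lowest value of 27 of the 32 unigenes and no food intake 4 the highest of 17. Over all 12 libraries 93.8% of the class was lower, against 54.0% of all tested unigenes. Without food intake 6, 13 were higher and 19 lower with a median of -0.09, so 59.4% were lower, against 44.5% of all tested unigenes. After rescaling 7 were higher and 25 lower with a median of -0.08, so 78.1% were lower, against 44.2%. The libraries with the chicken-matched unigenes include food intake 6 and no food intake 4. In them 2 were higher and 30 lower, with a median of -0.43, so 93.8% were lower, against 63.3%. In those without 21 were higher and 11 lower, with a median of 0.08, so 34.4% were lower, against 36.2%.

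Grouped by mark, enzymes that set H3K4 methylation (KMT2B, KMT2C, KMT2D and the SETD1 family) had 8 of 13 unigenes higher, 5 lower and a median of 0.06. The 3 tested KMT2E unigenes and the setd7 unigene were not counted there. Summed by gene name, KMT2E differed by -0.36 (unadjusted p 0.196 by limma) and SETD7 by 0.10 (unadjusted p 0.783 by limma). Enzymes that remove it (KDM1 and KDM5) had 1 of 14 higher, 13 lower and a median of -0.23. Without food intake 6 these were 9 higher and 4 lower for deposition, with a median of 0.13, and 6 higher and 8 lower for removal, with a median of -0.07. For lysine acetylation the order was the other way, with a median of -0.16 over 24 depositing unigenes and 0.05 over 15 removing ones. Those 15 were the 8 HDAC and 7 sirtuin unigenes tested, the mitochondrial SIRT3 and SIRT5 among them. The HDAC unigenes alone had a median of 0.11 and the sirtuins -0.37. After rescaling the H3K4 medians were 0.16 for deposition and -0.15 for removal. For H3K9 methylation the medians were -0.06 over 3 depositing unigenes and -0.20 over 6 removing ones, all 6 of them lower. For H3K27 they were -0.52 over 4 and -0.15 over 6, and for H3K36 -0.15 over 2 and -0.29 over 9, all 9 of them lower. Without food intake 6 the H3K9 removers were 3 higher and 3 lower, and the H3K36 removers 3 higher and 6 lower. After rescaling they were 2 higher and 4 lower, and 1 higher and 8 lower. Of all tested unigenes 54.0% were lower over all 12 libraries, 44.5% without food intake 6 and 44.2% after rescaling. Since the KDM4 unigenes count under both H3K9 and H3K36, these groups share members. For DNA methylation the medians were 0.11 over 4 depositing unigenes and 0.16 over 2 removing ones, and H4K20, with depositing enzymes alone, had -0.27 over 5. The grouping by mark was made after the values were seen and was not tested.

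Enzymes of DNA methylation were few. The maintenance methyltransferase DNMT1 averaged 3.10 ± 1.64 TPM with food intake and 3.74 ± 3.26 TPM without in its tested unigene, a log2 difference of -0.08 (SE 0.42). Tested unigenes of the de novo enzymes were short. A 286-base DNMT3A unigene averaged 1.68 ± 0.933 TPM with food intake and 1.81 ± 1.11 TPM without. The more abundant tested DNMT3B unigene, of 203 bases, was listed at 0 in libraries of both groups. It reached 11 TPM in food intake and 2.96 TPM in no food intake libraries. Its log2 difference was 0.76 (SE 0.51, unadjusted p 0.155 by limma), and 1.09 (unadjusted p 0.0396 by limma) without food intake 6. Leaving out any single library gave 0.38 to 1.09. The other tested DNMT3B unigene, of 247 bases, differed by 0.28 (unadjusted p 0.465 by limma). Summed by gene name, DNMT3B differed by 0.65 (unadjusted p 0.227 by limma). Tet3, which oxidises methylcytosine, was the most abundant of these enzymes, with 4.58, 14.6 and 18.4 TPM (lowest, median and highest) with food intake, against 5.66, 7.54 and 18.5 TPM without. Of its 6 food intake libraries 5 exceeded the median of the no food intake group, and the log2 difference was 0.46 (SE 0.37, unadjusted p 0.225 by limma). It was 0.71 (unadjusted p 0.0381) without food intake 6 and 0.61 (unadjusted p 0.0442) after rescaling. In the libraries with the chicken-matched unigenes it was -0.22 (unadjusted p 0.685 by limma), and in those without 1.38 (unadjusted p 0.00224 by limma). Leaving out any single library gave 0.35 to 0.71.

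Proteins that work with these enzymes under other names were counted from lists of symbols. For comparison, 46.0% of all tested unigenes were higher with food intake and 54.0% lower. At an unadjusted p under 0.05 by limma, 2.48% of all tested unigenes were higher and 3.79% lower. The PRC2 accessory and PRC1 list had 9 of 25 tested unigenes higher and 16 lower, with 0 higher and 1 lower at an unadjusted p under 0.05. That unigene was CBX7, a chromodomain subunit of PRC1 that binds methylated H3K27, at 0.688 ± 0.779 TPM with food intake and 2.40 ± 1.90 TPM without, although its best match is only a chromodomain protein. MLL and COMPASS partners had 10 of 20 higher and 10 lower, with 0 under that threshold. Histone methyltransferases under other names had 10 of 19 higher and 9 lower, with 0 higher and 2 lower under that threshold.

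Those 2 were Smyd1 and ASH1L. Smyd1, a methyltransferase of heart and skeletal muscle, averaged 0.628 ± 0.472 TPM with food intake and 7.17 ± 10.9 TPM without (log2 difference -1.52, unadjusted p 0.017, adjusted p 0.774 by limma). ASH1L, which methylates H3K36, averaged 3.98 ± 2.56 TPM with food intake and 9.54 ± 5.78 TPM without, a difference of -1.02 (unadjusted p 0.021).

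Demethylases under other names had 3 of 12 higher and 9 lower, and DNA methylation partners 8 of 15 higher and 7 lower, with 0 under that threshold in either. Acetyltransferase partners had 14 of 35 higher and 21 lower, with 1 lower under it, ING1. Deacetylase corepressor complexes had 19 of 45 higher and 26 lower. In that list a ncor1 unigene, a scaffold for HDAC3, was under that threshold at 9.44 ± 2.52 TPM with food intake and 19.7 ± 11.1 TPM without, a log2 difference of -0.86, as was a CHD4 unigene at 0.72. Bromodomain and chromodomain readers had 11 of 40 higher and 29 lower, with PHIP alone under the threshold. For these lists too, 54.0% of all tested unigenes were lower, and 2.48% were higher and 3.79% lower under the threshold. ATP-dependent remodellers had 19 of 44 higher and 25 lower, with 0 higher and 3 lower under it. Among them was a pair of unigenes named SMARCA4, shorter than the median member. The 254-base unigene was best matched to BRG1, another name of SMARCA4, but the 409-base unigene to SNF2L2.

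Enzymes that supply or consume the donors of these marks had 23 of 37 tested unigenes higher and 14 lower, with a median of 0.09. Thus 62.2% were higher, against 46.0% of all tested unigenes. At an unadjusted p under 0.05, 2 were higher (5.41%) and 1 lower (2.7%), against 2.48% and 3.79% of all tested unigenes. NAMPT, which makes the NAD that sirtuins use, averaged 3.6 ± 2.83 TPM with food intake and 1.36 ± 0.783 TPM without, a log2 difference of 0.83 (unadjusted p 0.033, adjusted p 0.774 by limma). The remethylating enzyme bhmt, which turns homocysteine into methionine, averaged 1.67 ± 0.855 TPM with food intake and 6.78 ± 5.61 TPM without, a difference of -1.21 (unadjusted p 0.023).

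Genes of cell division were set beside the EZH1 values. The summed TPM of 12 proliferation genes (16 unigenes, among them MKI67, PCNA and the MCM helicase subunits) was 46.9, 34.8, 38.7, 8.85, 52.3 and 10.7 in food intake 1 to 6, against 16.3, 23.0, 8.91, 23.0, 15.3 and 10.7 in no food intake 1 to 6. Means were 32.1 ± 18.3 TPM with food intake and 16.2 ± 5.95 TPM without, and the groups overlapped. As log2(TPM + 1), the mean sums differed by 0.75 (exact two-sided permutation p = 0.152). The 4 highest sums were those of food intake 1, 2, 3 and 5, and these 4 libraries had the lowest EZH1 values of the 12. Food intake 4, with the lowest sum, had the highest EZH1 value of its group.

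Across the 12 libraries the EZH1 unigene and the sum, both as log2(TPM + 1), had a Pearson r of -0.79 (permutation p = 0.00364). Spearman rho was -0.68 (permutation p = 0.0187). Libraries were permuted without regard to group, so r and rho include any difference between the groups. Among the 38 relations computed, of both EZH unigenes with 19 lists, the adjusted permutation p was 0.138 for r and 0.237 for rho, so the relation failed the correction. The relation was picked from those 38 after the values were seen. Without food intake 1 and 5, the farthest from the median sum, r was -0.72 (permutation p = 0.0257, n = 10). Within food intake r was -0.89 (exact permutation p = 0.05, n = 6), and within no food intake r was -0.59 (exact permutation p = 0.194, n = 6). Within the 7 libraries with the chicken-matched unigenes r was -0.64 (exact permutation p = 0.126), and the other 5 libraries are fewer than the 6 taken here as the minimum for a correlation. The EZH2-matched unigene, too low for the test between groups, had r = 0.60 (permutation p = 0.0416) and rho = 0.41 (permutation p = 0.185). The adjusted permutation p was 0.264 for r. Its r was larger in size with the red blood cell list (-0.66) and the fibroblast and matrix list (-0.62). Their adjusted permutation p-values were 0.151 and 0.264, so its relation to the proliferation list did not stand out. The part of dividing cells in the EZH1 difference was not tested.

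**Figure D5:**
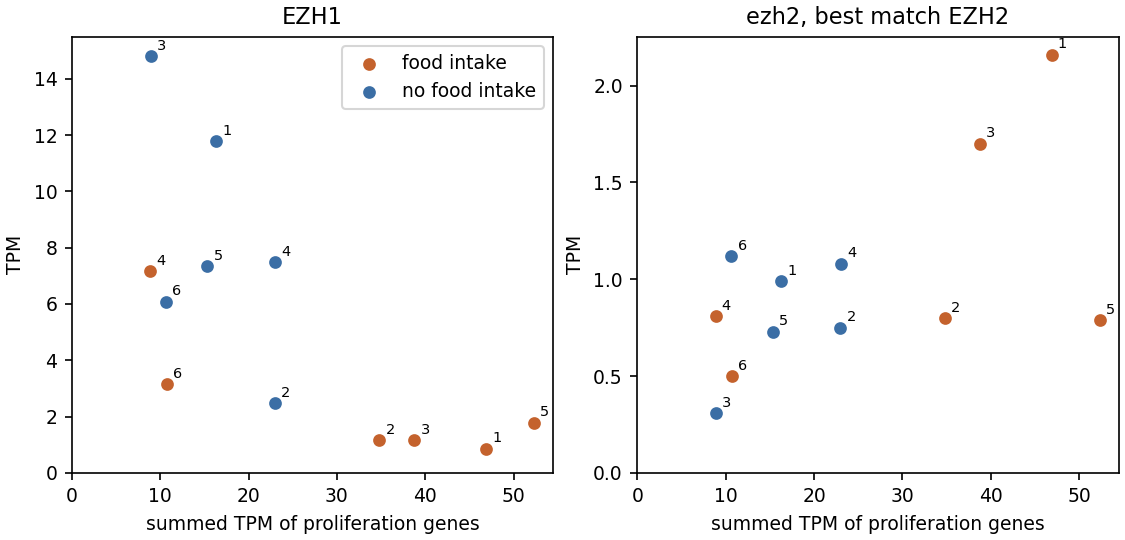
TPM of the EZH1 unigene (left) and of the EZH2-matched unigene (right) against the summed TPM of the proliferation genes in each library, numbered by replicate, with food intake in orange and no food intake in blue. EZH1 lies under 2 TPM in the 4 food intake libraries with sums above 30 TPM and between 2.48 and 14.8 TPM in the no food intake libraries.

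The stomach gland genes (pepsinogens, chitinase and the proton pump) summed to 108904 to 372235 TPM with food intake and 58293 to 367856 TPM without. These are the stomach's own products, so the tissue label fits its defining markers. Smooth muscle genes summed to 2841 to 6724 TPM with food intake and 1539 to 26516 TPM without. The upper end was no food intake 3, which also had the highest EZH1 value. Across the 12 libraries the EZH1 unigene and the smooth muscle sum, both as log2(TPM + 1), had a Pearson r of 0.21 (permutation p = 0.532). Immune genes summed to 15.1 to 33.2 TPM with food intake and 15.1 to 52.9 TPM without, and no unigene was named CD74, CD79A, CD79B or CORO1A. Endothelial genes summed to 1.95 to 7.16 TPM with food intake and 3.38 to 8.65 TPM without, with no unigene named PECAM1 or CDH5. Fibroblast and matrix genes summed to 299.8 to 1098 TPM with food intake and 198 to 2017 TPM without, and red blood cell genes to 102 to 765 TPM with food intake and 97.6 to 886 TPM without. Mucous surface genes summed to 1142 to 12339 TPM with food intake and 1042 to 4178 TPM without, and exocrine pancreas genes to 12.7 to 220.4 TPM with food intake and 8.0 to 64.8 TPM without. All these ranges overlapped. The counts of tested unigenes follow, where 46.0% of all tested unigenes were higher and 54.0% lower. At an unadjusted p under 0.05 by limma, 2.48% of all tested unigenes were higher and 3.79% lower. Several unigenes can be fragments or copies of 1 gene, and the 25 stomach gland unigenes came from a list of 5 genes. Stomach gland genes had 21 of 25 higher (median 0.55), mucous surface 5 of 5 (median 0.42), exocrine pancreas 5 of 5 (median 0.89), proliferation 6 of 8 (median 0.32) and red blood cell 5 of 8 (median 0.13). Lower with food intake were 5 of 6 immune unigenes (median -0.17), 4 of 4 endothelial (median -0.11), 17 of 26 smooth muscle (median -0.07) and 16 of 27 fibroblast and matrix unigenes (median -0.03). At an unadjusted p under 0.05 were a PGA unigene (log2 difference 1.41, p 0.029) and PCNA (0.91, p 0.037) on the higher side and CD3E (-0.80, p 0.024) on the lower, with adjusted p-values of 0.774 to 0.779 by limma. Their part in the values of the enzymes was not tested.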

How the data were processed

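RNA was extracted from each stomach with TRIzol, made into mRNA libraries with an Illumina kit and sequenced in pairs, per the labels' protocols. Per the submitters' processing notes, cutadapt and FastQC were used on the reads. The assembler's identifiers are Trinity's. The quantifier is not given in the sources used here. The authors' deposited values were taken as TPM from near-equal column totals of 984119 to 992092, since the header names no unit. Depth is therefore unknown, and precision was judged from the spread between fish.

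Tests used limma 3.58.1 with a variance trend and group as its term, on log2(TPM + 1). Unigenes with 6 or more libraries at a minimum of 1 TPM were tested. R was at version 4.3.3 and its data.table package at version 1.17.8. P-values were adjusted over all 40142 unigenes by Benjamini and Hochberg. Differences are food intake minus no food intake, and the scale understates changes of low unigenes. The script was tested on simulated data. Counts, permutations and figures were made with Python 3.11.15, pandas 2.3.3 and matplotlib 3.10.9. Ribosomal RNA-like unigenes were the 7 with a mean of at least 1000 TPM that correlated at 0.95 or more with a unigene named ART2. A count test had been planned only for the case that the table held counts, and it was not used.

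The members and lists were chosen with earlier results of these data known. Named members were, in each class, the most abundant tested unigene of each of the 3 most abundant gene names, those at an unadjusted p under 0.05, and the most abundant unigene of each PRC2 gene. For other lists at most the 2 with the smallest p were named. Further unigenes of KDM6, EHMT, KDM5B, KDM1A and hdac9b were named after their values were seen. Same-numbered libraries of the groups were not treated as pairs, because their deviations correlated at only -0.102 to 0.108. The labels describe the fish as individuals.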

Additional observations from a re-analysis of the deposited data

Results flagged for a closer look

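For each of the 31 named unigenes, the highest and lowest library of each group were compared with the rest of that group by Dixon's gap on log2(TPM + 1), 62 groups in all. At the critical value of 0.625, chance marks about 5% of groups, and 2 were marked. The Kmt2b unigene had 39.06 TPM in no food intake 4, far above the other no food intake libraries, with a gap of 0.702 of the group's range. The hdac3 unigene had 4.58 TPM in food intake 6, far below the other food intake libraries, with a gap of 0.711 of the range. Food intake 6 is the library with 64.2% of its TPM in ribosomal RNA-like unigenes, and no food intake 4 the one that held the highest value of 49 of the 119 tested members.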

How the results depend on the processing

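No member had an adjusted p under 0.05 in limma under any alternative run. At an unadjusted p under 0.05, the 2 members higher with food intake became 1 in the libraries with the chicken-matched unigenes, 1 with those libraries as a term, 0 with a mean of at least 5 TPM, 1 with a pseudocount of 0.1 TPM, 4 after rescaling, 5 in the libraries without the chicken-matched unigenes and 0 when summed by gene name. In that order, members stood at 0.84% against 1.47% of all tested unigenes, 0.84% against 2.46%, 0.0% against 2.69% and 0.84% against 2.18%. The rest were 3.36% against 5.69%, 4.2% against 4.88% and 0.0% against 2.46%. Leaving out a library gave 1 to 9, with 9 without food intake 6. The 4 lower became 7 with the library sets as a term, 2 with a mean of at least 5 TPM, 10 with quantile normalization, 1 in the libraries without the chicken-matched unigenes and 2 with the replicate number as a block. These were 5.88% against 4.35% of all tested unigenes, 11.1% against 4.81%, 8.4% against 4.65%, 0.84% against 1.47% and 1.68% against 3.58%. Leaving out a library gave 2 to 10, with 10 without food intake 4, 8 without no food intake 2 and 2 without no food intake 6. The 8 are 6.72% of the members, against 4.47% of all tested unigenes, and the 2 are 1.68%, against 2.95%. The 10 are 8.4% of the members, against 4.81% of all tested unigenes without food intake 4, and the 9 are 7.56%, against 8.36%. Since the numbers do not pair the fish, the block is only a check, and no library deviated most like its own number.

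Class medians moved by more than the spread between libraries in these cases. With a mean of at least 5 TPM the PRC2 value was -1.46 and that of acetyltransferases -0.40, each from 1 unigene. The median was then -0.55 over 6 KDM demethylase unigenes and 0.49 over 2 HDAC deacetylase unigenes. The PRC2 median was -0.11 with no filter and -1.03 with a pseudocount of 0.1 TPM. In the libraries without the chicken-matched unigenes the acetyltransferase median was 0.059 and the TET median 0.68, and in those with them the HDAC median was -0.24. Summed by gene name, the sirtuin median was 0.14.

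Of 667 log2 differences of the 31 named members under other settings, 621 kept their direction and 46 turned it. In the libraries without the chicken-matched unigenes the turned values were DNMT3A 0.064, DNMT1 0.13, PRMT3 0.022, Prmt2 0.23, KAT5 0.10 and KDM5B 0.33. In those with them they were suz12b -0.11, Kmt2b -0.49, setd7 -0.18, HDAC4 -0.24 and Tet3 -0.22. DNMT1 was 0.021 when summed by gene name, and suz12b was -0.019 with a pseudocount of 0.1 TPM. Prmt2 was 0.060 with the library sets as a term, 0.021 with that pseudocount, 0.066 with quantile normalization and 0.15 after rescaling. Leaving out a library turned DNMT1 (-0.28 to 0.19), DNMT3A (-0.20 to 0.12), HDAC4 (-0.10 to 0.23), Kmt2b (-0.15 to 0.72), Prmt2 (-0.15 to 0.19), Tet1 (-0.42 to 0.082), eed (-0.22 to 0.012), setd7 (-0.00074 to 0.32) and suz12b (-0.088 to 0.24). The correlation of EZH1 with the proliferation sum was -0.70 with unigenes of mammalian best match left out, and that of the EZH2-matched unigene 0.56 (permutation p = 0.0544). These 2 and the members without mammalian matches were chosen after seeing the data, and the cause of each move was not tested.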
